A study of Mus musculus with 3 samples.

Results

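The cells described here are T cells that the authors placed in the Cd4 class and that nevertheless held transcripts of Cd8b1, the gene of the CD8 beta chain. They were chosen by 2 conditions: a Cd4 identity without the authors' double-positive call (Tdp), and at least 1 UMI of Cd8b1. A UMI, or unique molecular identifier, stands for 1 captured RNA molecule. Of 2477 Cd4 class cells 290 met both conditions, among 5564 cells in all. They are called members below. The cells beside them are Cd4 class cells with 0 UMIs of Cd8a and Cd8b1 (2165 cells, the reference). A further 22 Cd4 class cells had Cd8a but no Cd8b1 and entered neither group.

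All cells came from 1 pool of mouse T cells taken from B16F10 tumors, a transplantable melanoma placed under the skin in matrigel. Mice received purified CD4 T cells marked by CD45.1, or CD8 T cells marked by CD45.2, by vein on day 1, and tumors were resected on day 11 and pooled from 10 mice. The 4 sorted populations were single-positive CD4 cells, single-positive CD8 cells, and double-positive cells of CD4 and of CD8 donor origin, each with a hashtag of its own. About 6200 cells were loaded for droplet capture with reads from the 5′ end. The pool's hashtag and T cell receptor libraries were not analysed here. The deposited annotation numbers the hashtags from 1 to 4 without tying a number to a sorted population. Members therefore cannot be assigned to an origin or to a sort gate. The numbers are parts of 1 pool and not replicates.

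CD4 and CD8 are the co-receptors of T cells that recognise MHC class II and MHC class I. CD8 on conventional cytotoxic T cells is a pair of an alpha chain (Cd8a) and a beta chain (Cd8b1), and in the thymus most T cells keep one co-receptor and silence the other, with ThPOK (Zbtb7b) acting for the CD4 lineage and Runx3 for the CD8 lineage. Some mature CD4 T cells, best known in the gut lining, take up CD8 alpha and cytotoxic genes again. Regulatory T cells, which restrain immune responses and are set by the factor Foxp3, mostly belong to the CD4 lineage, and Foxp3-expressing CD8 T cells are also known.

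The gene table held counts of 14811 genes, with a median of 3869 UMIs per cell and no cell above 4.99% mitochondrial UMIs. Since 1 library holds every cell, there was no test across samples. Intervals below are at 95% and cover counting error only. Where 0 cells were found, the share that 3 cells would give is printed as the limit. Intervals are exact Poisson intervals for levels, Clopper-Pearson intervals for shares of cells, and for ratios of levels come from the exact binomial split of the summed UMIs. A level is a group's summed UMIs of a gene scaled to its total (CPM). Because members were deeper (median 4019 UMIs against 3451 in the reference), each was matched to up to 3 reference cells of the same hashtag number with a total within 10%. This left 278 members (median 3985.5 UMIs) and 808 reference cells (median 3934 UMIs). A gene counts as higher or lower here if its ratio reached 1.5-fold and the interval of that ratio did not hold 1, given 50 UMIs or more in the sum of both groups. Of 7828 genes with that many UMIs 157 were higher (2.01%) and 173 lower (2.21%), with a median log2 ratio of -0.0026. Members were chosen by their Cd8b1 count, and few Cd4 class cells held both Cd4 and Cd8a, since cells with both were mostly called Tdp, so levels of these 3 genes are given as descriptions. The sources used here do not say how the authors called the Cd4 identity or removed doublets.

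Most members held very little Cd8b1. A single UMI was found in 169 members (58.3%), 2 or 3 UMIs in 43 (14.8%) and at least 4 in 78 (26.9%), with a highest count of 23. The cells just inside the threshold are thus the 169 with 1 UMI, and those just outside it are the reference with 0. Cd8a transcripts followed the Cd8b1 count. They were found in 1.78% of members with 1 Cd8b1 UMI, in 57.9% of those with 2 or more and in 71.8% of those with 4 or more, against 84.2% of Cd8 class cells that held Cd8b1. A Cd4 UMI was found in 65.1%, 27.3% and 20.5% of the same 3 groups of members and in 70.5% of the matched reference. Only 3 members held both Cd4 and Cd8a, and 77 (26.6%) held neither. All 93 cells with a Cd4 identity and the Tdp call held both. The lower Cd4 share beside more Cd8a is thus partly set by the classes.

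**Figure D1:**
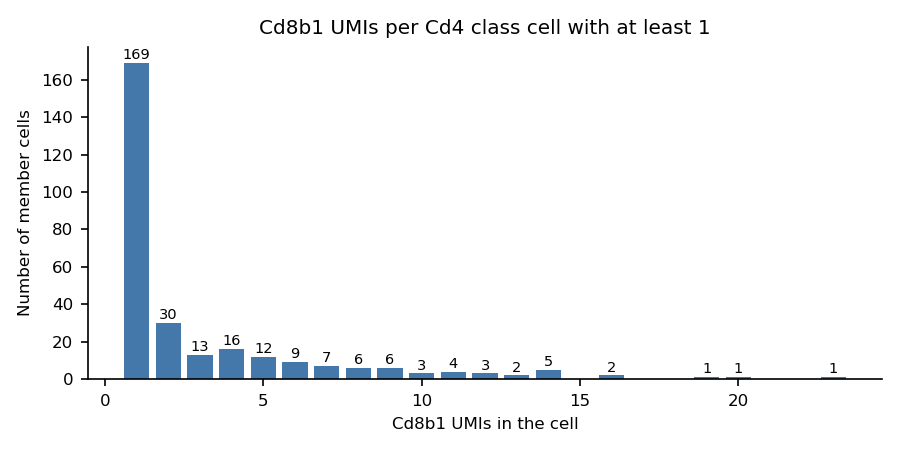
Number of members (y axis) by their count of Cd8b1 UMIs (x axis). The tallest bar is the 169 cells with 1 UMI, and a long tail reaches 23 UMIs.

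The share of the Cd4 class with a Cd8b1 UMI was 11.7% (10.5 to 13.0), against 85.0% in the Cd8 class and 57.0% of the 93 cells called both Tdp and Cd4 by identity. Deeper cells held one more often, with 8.19% of cells under 2000 UMIs and 9.22%, 15.7% and 18.0% in the bins that began at 2000, 4000 and 8000 UMIs. After thinning each cell to 2000 UMIs it was 8.02% (6.93 to 9.22). Free RNA can place single UMIs in cells that do not express a gene. As a measure of this, Cd4 class cells in a cluster led by the myeloid genes Lyz2, H2-Aa and H2-Eb1 held a Cd8b1 UMI in 6 of 71 cells (8.45%, 3.16 to 17.5, median 11604 UMIs), and 2 or more in 0 of 71, which allows a share of up to 4.23%. Thinned to 2000 UMIs, 1 of 69 of these cells kept a Cd8b1 UMI (1.45%, 0.0367 to 7.81). Over all classes that cluster held a Cd8b1 UMI in 22.4% of 299 cells, which include cells of the Cd8 class. The thinned share in the myeloid cluster rests on 1 cell, and its interval overlaps that of the whole thinned Cd4 class. The part of free RNA in the single UMIs was not tested. As a caution, a single Cd8b1 UMI is not read as expression below, although such cells stay among the members.

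States of the Cd4 class differed in this share. Clusters were made without the co-receptor genes. In the cluster led by Foxp3, Tnfrsf9 and Il2ra, which is regulatory T cell-like, 105 of 592 Cd4 class cells were members (17.7%, 14.7 to 21.1), and 6.76% held 4 or more Cd8b1 UMIs. In the cluster led by Ccl5, Dapl1 and Cd7 the shares were as high, at 24 of 147 (16.3%, 10.7 to 23.3) and 6.80%. That cluster was mostly one of Cd8 class cells. Over all classes 90.5% of its 1840 cells held a Cd8b1 UMI, and 64.1% of Cd8 class cells with Cd8b1 lay in it. In the cluster led by Il17re, Serpinb1a and the Tmem176 genes they were 6.94% (5.26 to 8.96) and 1.03%. Thinned to 2000 UMIs per cell, the regulatory cluster stood at 14.3% (11.3 to 17.6), the Ccl5 cluster at 12.8% (7.50 to 20) and the Serpinb1a cluster at 4.28% (2.92 to 6.01), whose interval overlapped neither of the others. Members were found under every hashtag number, at 9.32% of the Cd4 class in number 1, 11.1% in number 2, 22.8% in number 3 and 14.1% in number 4. Those numbers held Cd8 identity cells at 27.2%, 54.3%, 81.1% and 63.7% of all their cells, and the part of neighbouring Cd8 cells in the member shares was not tested.

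Some genes listed for the CD8 lineage stood higher in members. Of 8 measured CD8 lineage genes, the co-receptors left out, 4 were higher (Cd7, Cd160, Itgae and Xcl1), 4 were not called and none was lower, with a median log2 ratio of 0.40. Cd7 and Ccl5 were markers given with these cells, and the lists were made with earlier results known. Here and below their values and the list counts are thus descriptions. Cd7, a surface protein of T and NK cells, stood at 162, 216, 257 and 222 CPM in members of hashtag numbers 1 to 4 and at 47.8, 69.3, 43.0 and 49.4 CPM in their reference cells. The groups did not overlap. Here and below, the share of all measured genes that separate in this way is not given, so such separation is a description only. The ratio of the summed levels was 3.74 (3.12 to 4.50), and a Cd7 UMI was found in 31.7% of members and 14.7% of the reference. Cd160, a receptor of cytotoxic lymphocytes, stood at 39.3, 54.6, 39.1 and 72.8 CPM in members and at 8.25, 8.79, 7.59 and 6.86 CPM in reference cells, again without overlap. Its ratio was 6.17-fold (4.01 to 9.69), although only 10.8% of members and 2.48% of the reference held a UMI of it. Itgae, the integrin chain CD103, was 1.59-fold higher (1.24 to 2.03), with member values from 63.2 to 101 CPM that overlapped the reference (31.3 to 64.5). Without Foxp3 cells its log2 ratio was -0.10. In Cd8 class cells with Cd8b1 Itgae stood at 18.3 CPM, under the 46.4 CPM of the reference. Its rise in members was thus not toward that class, though it stays in this list below. Xcl1, a chemokine gene, was 3.82-fold higher in the sum, but 94.1% of its member UMIs lay in 3 cells, and without cycling cells its log2 ratio turned to -0.90. The lineage factor Runx3 was not called, at 132 CPM (114 to 152) against 117 CPM (106 to 128). Among the others, Ly6c2 had a ratio of 1.03 (0.936 to 1.14), Il2rb of 1.14 (1.03 to 1.27) and Tbx21 of 0.962 (0.752 to 1.22).

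Ccl5, a chemokine of effector T cells, stood at 2068, 2879, 2641 and 2943 CPM in members and at 1107, 1768, 1065 and 1168 CPM in the reference. Every member value lay above every reference value, and the ratio of the sums was 1.96-fold (1.88 to 2.04). The groups differed less in how many cells held the gene, 60.4% against 52.7%.

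**Figure D2:**
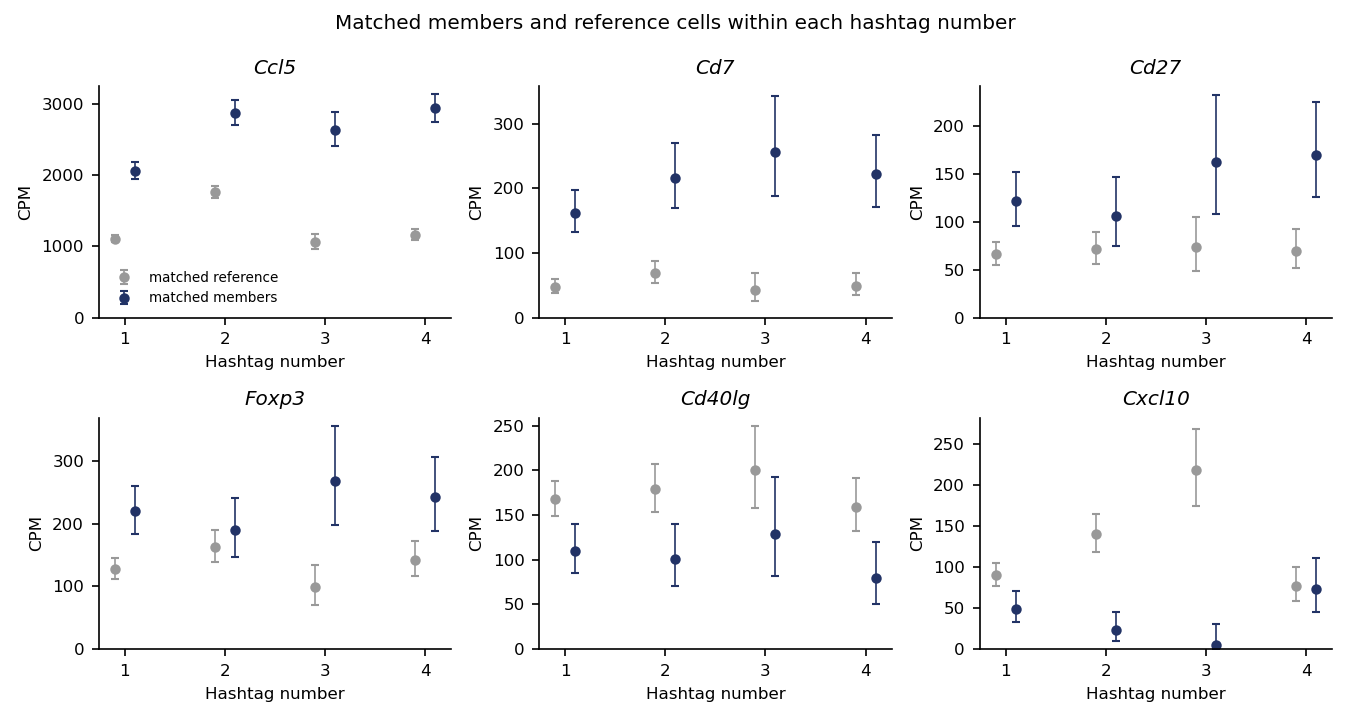
Level in CPM (y axes) of 6 genes in matched members (dark) and matched reference cells (grey) of each hashtag number (x axes), with exact Poisson 95% intervals. Ccl5, Cd7 and Cd27 were above the reference and Cd40lg below it in all 4 numbers, and intervals of both groups overlap for Foxp3 in number 2 and Cxcl10 in number 4.

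Cytotoxic genes moved only in part. Of 16 measured, Gzmb and Gzmk were higher, Gzmc was lower and 13 were not called (median log2 ratio 0.12). Gzmb, the granzyme that cleaves caspases in target cells, stood at 1014, 1003, 765 and 1411 CPM in members and at 502, 579, 688 and 655 CPM in the reference, with no overlap. The ratio was 1.86-fold (1.75 to 1.99). Gzmk, another granzyme gene, was 1.62-fold higher (1.33 to 1.96), from 83.2 to 170 CPM in members against 55.7 to 80.8 CPM. Nkg7, which acts in granule release, reached 1.46-fold (1.38 to 1.56) and Ctsw 1.36-fold (1.22 to 1.52), both under the fold needed. Prf1, which encodes perforin, had a ratio of 1.47 with an interval that includes 1 (0.902 to 2.34). Gzmc was held by 2.88% of members and 2.35% of the reference, so its ratio of 0.217 rests on few cells, and it turned without cells holding 2 T cell receptor beta V genes (log2 ratio 0.18).

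Receptors shared with NK cells gave 3 higher and 1 lower of 8 measured, with a median of 0.31. Klrc1, the inhibitory receptor chain NKG2A, was 2.02-fold higher (1.55 to 2.62), Klrk1, the activating receptor NKG2D, 1.62-fold (1.23 to 2.12) and Klrg1 1.67-fold (1.34 to 2.08), though with at least 2 Cd8b1 UMIs Klrg1 turned (log2 ratio -0.29). Their levels were 67.2, 37.4, 123 and 93.6 CPM for Klrc1 in members of numbers 1 to 4 and 34.1, 43.0, 38.0 and 28.8 CPM in the reference. In number 2 the member value lay below the reference. Klrd1, the partner chain of NKG2A, stood at 1.48-fold (1.20 to 1.84) and was not called. The lower gene was Fcer1g, a signalling adaptor that myeloid cells also express.

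Among receptors of costimulation and inhibition, Cd27, a costimulatory receptor of the TNF receptor family, was found in 40.3% of members and 21.7% of the reference. It stood at 121, 106, 162 and 170 CPM against 66.0, 71.3, 73.4 and 70.0 CPM, with no overlap, and was 1.93-fold higher (1.59 to 2.33). Of 12 inhibitory receptor and exhaustion genes 3 were higher (Cd160, Tox and Ctla4) and none lower, with a median of 0.20. Tox, a transcription factor of exhausted T cells, was 1.87-fold higher (1.44 to 2.42), at 54.6 to 80.3 CPM against 30.4 to 40.7 CPM across the numbers. Pdcd1, which encodes PD-1, had a ratio of 1.09 (0.924 to 1.29). Other genes among the 12 highest log2 ratios were Dusp4, a phosphatase of MAP kinases (2.78-fold, 1.81 to 4.28), Cd80, a ligand of CD28 and CTLA-4 (2.86-fold, 1.76 to 4.66), the G protein-coupled receptor gene Gpr55 (2.47-fold, 1.77 to 3.44), the ubiquitin ligase gene Nedd4 (2.44-fold, 1.43 to 4.15), the nuclear pore gene Nup93 (2.19-fold, 1.38 to 3.44) and Rln3, a relaxin gene (2.23-fold, 1.60 to 3.1). These are low genes, each in under 20% of cells, and 55.1% of the Rln3 UMIs of members lay in 3 cells.

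Regulatory T cell genes gave 3 higher and none lower of 15 measured (Foxp3, Ctla4 and Klrg1), with a median of 0.26. Foxp3 stood at 220, 190, 268 and 243 CPM in members and at 128, 163, 98.7 and 143 CPM in the reference. Every member value was above every reference value, and the ratio was 1.63-fold (1.41 to 1.88). A Foxp3 UMI was held by 99 of 278 members (35.6%, 30.0 to 41.6) and 173 of 808 reference cells (21.4%, 18.6 to 24.4). Ctla4, an inhibitory receptor abundant on regulatory T cells, was 1.67-fold higher (1.47 to 1.89), but in number 2 it stood at 149 CPM in members and 217 CPM in the reference. Tnfrsf9, the costimulatory receptor 4-1BB, reached 1.47-fold (1.34 to 1.62), and Il2ra, the CD25 chain, had a ratio of 1.09 (0.916 to 1.29). The regulatory cluster held 36.3% of members and 20.4% of the reference.

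Of 11 measured CD4 lineage and helper genes 2 were lower (Cd40lg and Zbtb7b), none was higher and 9 were not called, with a median of -0.27. Cd40lg, the ligand by which helper cells activate B cells and dendritic cells, stood at 110, 101, 128 and 79.7 CPM in members and 168, 179, 200 and 159 CPM in the reference, without overlap. It was 1.66-fold lower (1.39 to 2.00). Zbtb7b was 1.52-fold lower (1.10 to 2.14), with 47.5, 20.1, 11.2 and 31.2 CPM against 46.7, 58.6, 40.5 and 52.1 CPM. In number 1 the Zbtb7b values lay close together. Icos, a costimulatory receptor, had a ratio of 1.06 (0.944 to 1.19). Tnfsf11, which encodes RANKL, was 2.49-fold lower (1.67 to 3.85), at 6.93 to 26.2 CPM against 42.3 to 73.4 CPM.

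Of 9 genes of the Serpinb1a and Il17re program 4 were lower (Cd40lg, Il17re, Tmem176a and Tmem176b) and none higher, with a median of -0.31. Tmem176b, a membrane protein gene linked to type 17 cells, was 1.58-fold lower (1.30 to 1.92), but in number 3 it stood at 162 CPM in members and 104 CPM in the reference. Serpinb1a itself had a ratio of 0.801 (0.612 to 1.04). The cluster led by these genes held 19.1% of members (14.6 to 24.2) and 31.4% of reference cells (28.2 to 34.8).

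Cytokine, chemokine and interferon genes differed unevenly between the hashtag numbers. Of 6 measured cytokine genes 1 was higher (Csf2), 2 were lower (Il2 and Ifng) and 3 were not called, with a median of -0.249. Csf2 was 2.38-fold higher in the sum, but 100% of its member UMIs lay in 3 cells. Il2, a growth factor of T cells, was 3.59-fold lower (2.15 to 6.44), but 61.25% of its reference UMIs lay in 3 cells. The Il2 level of the reference was 64.9 CPM in number 1 and only 13.7 to 25.4 CPM in the others. Number 4 members were above their reference at 17.3 CPM. Ifng, the gene of interferon gamma, was 1.62-fold lower (1.25 to 2.13) in 16.2% of members and 17.1% of the reference. Cxcl10, an interferon-induced chemokine, was 2.69-fold lower (2.05 to 3.58), at 49.2, 22.99, 5.58 and 72.8 CPM against 90.2, 140, 218 and 76.9 CPM. The values of number 4 lay close together. Ifitm3, an antiviral membrane protein gene, was 1.87-fold lower (1.71 to 2.04). Of 12 interferon response genes Oasl2 alone was lower, at 1.63-fold (1.26 to 2.15), and none was higher (median -0.13). Ccl4, a chemokine gene, was 1.62-fold lower, but 85.1% of its member UMIs lay in 3 cells, and without hashtag number 1 its log2 ratio was 2.58. None was called among 10 chemokine receptors, 9 naive and memory genes, 12 genes of T cell receptor activation, 9 MHC class I genes, 13 stress genes and 7 pan-T cell genes. Of 18 proliferation genes only Cdc20, of the anaphase-promoting complex, was higher, and 27.3% of members and 27.4% of reference cells held 5 or more proliferation UMIs. This differed among members, as given with the groups below.

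The differences were not spread evenly over the members. Those with 1 Cd8b1 UMI lay nearest to the reference in most of these genes, and those with more UMIs lay further from it. Summed Ccl5 levels were 1284 CPM in the matched reference, 1173 CPM (1098 to 1251) in members with 1 UMI, 3194 CPM (2955 to 3446) with 2 or 3 and 4079 CPM (3907 to 4256) with 4 or more. Cd8 class cells with Cd8b1 stood at 8915 CPM. Cd7 went from 53.2 CPM to 71.3, 183 and 404 CPM in the same order, and the last value was close to the 430 CPM of the Cd8 class. Cd27 followed at 68.8, 93.0, 140 and 177 CPM, beside 191 CPM in the Cd8 class. Cd40lg stood at 172, 153, 48.2 and 42.4 CPM, with 20.4 CPM in the Cd8 class. The intervals of the groups with 2 or 3 UMIs and with 4 or more overlapped for Cd27, Cd40lg and Foxp3, but not for Ccl5, Cd7 and Gzmb.

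**Figure D3:**
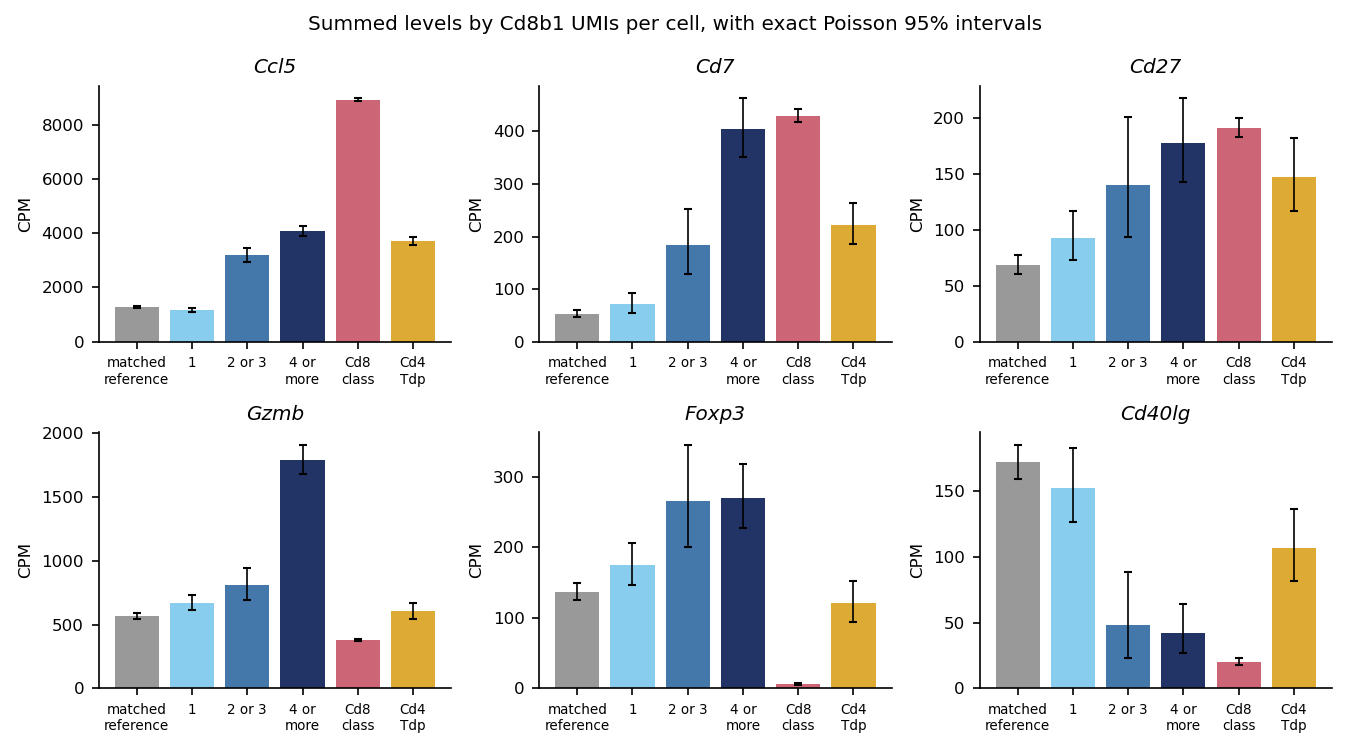
Summed level in CPM (y axes) of 6 genes in matched reference cells, in members with 1, 2 or 3, and 4 or more Cd8b1 UMIs, in Cd8 class cells with Cd8b1 and in Cd4-identity Tdp cells, with exact Poisson 95% intervals. Among members those with 1 UMI stand nearest to the reference, and Gzmb and Foxp3 with 4 or more UMIs stand above both the reference and the Cd8 class.

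Matching each group to its own reference cells gave the same picture. With 1 Cd8b1 UMI (167 members, 498 reference cells) none of 7 CD8 lineage genes was higher and Xcl1 was lower, none of 14 cytotoxic genes was called, and none of 10 helper genes was called, where 2.01% of all 6315 genes were higher and 1.69% lower. Cd7 had a ratio of 1.34 (0.959 to 1.85), Ccl5 of 0.905 (0.838 to 0.976), Cd40lg of 0.817 (0.662 to 1.00) and Cd27 of 1.31 (0.980 to 1.74). Even so Ctla4 was 1.60-fold higher (1.34 to 1.89), Tox 1.77-fold (1.21 to 2.58), Klrg1 2.70-fold (2.03 to 3.58) and Rln3 2.43-fold (1.63 to 3.63) in these cells, and Cxcl10 was lower at a ratio of 0.296 (0.200 to 0.424). Dendritic cell markers were higher in the same cells, as given below, and their part was not tested.

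With 2 or more Cd8b1 UMIs (115 members, 336 reference cells) 3.21% of 5789 genes were higher and 4.92% lower. Of 8 CD8 lineage genes 4 were higher (Cd7, Cd160, Itgae and Xcl1) with a median of 0.72, and 5 of 16 cytotoxic genes were higher (Gzmb, Gzmk, Nkg7, Prf1 and Ctsw) and 2 lower (Ctsc and Gzmc). Cd7 was 7.84-fold higher (6.08 to 10.2), Ccl5 3.17-fold (3.00 to 3.35), Cd27 3.09-fold (2.36 to 4.06), Gzmb 2.65-fold (2.44 to 2.88), Nkg7 2.20-fold (2.03 to 2.38) and Foxp3 2.15-fold (1.78 to 2.61). Of 10 inhibitory genes 6 were higher, among them Pdcd1 at 1.65-fold (1.30 to 2.10), which had not been called over all members. Of 8 genes of the Serpinb1a program 5 were lower, with a median of -0.94, and Ifitm3 was lower at a ratio of 0.177 (0.144 to 0.216).

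The group with 4 or more UMIs was set apart after the data were seen. Against its matched cells (74 members, 216 reference cells) 4.54% of 4694 genes were higher and 5.79% lower, and 6 of 7 CD8 lineage genes were higher, now with Runx3 at 1.70-fold (1.30 to 2.21), Ly6c2 at 1.84-fold (1.58 to 2.13) and Il2rb at 1.59-fold (1.34 to 1.88). Regulatory genes were higher in the same cells, 5 of 11, namely Foxp3, Ctla4, Tnfrsf9, Il2ra and Ikzf2, which encodes Helios. Members of both lists were thus higher in 1 group of cells. Itgae is counted in the CD8 list, although it stood lower in the Cd8 class than in the reference. Proliferation genes were lower in the group with 4 or more UMIs, with 9 of 17 lower and none higher (1879 against 3472 CPM, median -0.64). Cells with 5 or more proliferation UMIs made up 31.1% (20.8 to 42.9) of it and 41.2% (34.6 to 48.1) of its reference, and these intervals overlap. With 2 or more Cd8b1 UMIs, 4 of 18 proliferation genes were higher and 2 lower (median 0.087).

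Members were also split by whether a Cd4 or a Foxp3 UMI was seen, each matched to reference cells of the same kind. In members with a Cd4 UMI (139, beside 403 reference cells, with 2.38% of 6503 genes higher and 1.91% lower) Cd7 was 1.92-fold higher (1.43 to 2.57), Cd27 1.61-fold (1.22 to 2.13), Tox 2.39-fold (1.70 to 3.36) and Cd160 5.23-fold (3.01 to 9.33), while none of 15 cytotoxic genes was higher and Ccl5 had a ratio of 1.42 (1.33 to 1.51). Of 18 proliferation genes 6 were higher in these cells and none lower (3962 against 3265 CPM). In members with no Cd4 UMI (125, beside 350 reference cells, with 2.35% of 4417 genes higher and 3.31% lower) Cd7 was 4.95-fold higher (3.76 to 6.56) and Ccl5 2.53-fold (2.37 to 2.71), and 5 of 12 cytotoxic genes were higher, among them Gzmb at 2.19-fold (1.98 to 2.43) and Nkg7 at 2.17-fold (1.94 to 2.43). These cells held more Cd8b1, at 1021 CPM (943 to 1103) against 290 CPM (256 to 328) in members with a Cd4 UMI. Cells with both Cd4 and Cd8a were mostly called Tdp, so this difference is partly set by the classes. Of the 73 members with a Cd8a UMI only 3 also held Cd4. The Ccl5 and cytotoxic values of the split by Cd4 carry the same limit. In members with no Foxp3 UMI (181, beside 516 reference cells, with 2.28% of 6628 genes higher and 2.64% lower) Cd7 was 3.68-fold higher (2.91 to 4.67), Ccl5 1.90-fold (1.80 to 2.00) and Cd27 2.06-fold (1.5 to 2.83). Regulatory genes were higher there too, with 5 of 11, among them Il2ra at 2.20-fold (1.54 to 3.13) and Tnfrsf9 at 2.03-fold (1.68 to 2.46). Cd7 and Cd27 were thus higher in members of each of these kinds, and Gzmb was not called in members with a Cd4 UMI, nor in those with or without a Foxp3 UMI when each was matched to its own kind.

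Foxp3 was found in 41 of the 78 members with 4 or more Cd8b1 UMIs (52.6%, 40.9 to 64.0). The share was 27.2% (20.7 to 34.6) with 1 UMI, 46.3% with 2 or more, 19.4% in Cd4-identity Tdp cells and 1.67% (38 of 2279) in Cd8 class cells with Cd8b1. Median totals were 5553.5 UMIs in these members and 4125 UMIs in those Cd8 class cells. Under hashtag numbers 1 to 4 it was 13 of 19, 9 of 19, 8 of 20 and 11 of 20 cells. An identity call that used Foxp3, or genes that go with it, would itself set these classes apart. Cells with Cd4 and Cd8a were mostly called Tdp. A Cd4 UMI was seen in 58.8% of matched reference cells with Foxp3 and 74.8% of those without. The Foxp3 shares beside Cd8 class and Tdp cells are thus a description. These 41 cells held 1 to 7 Foxp3 UMIs with a median of 3, and 32 held 2 or more. Cd8a was detected in 29 of them and Cd4 in 6, a Helios (Ikzf2) UMI in 34, Ctla4 in 29, Ccl5 in 39, Gzmb in 36 and Cd7 in 30. With 41 such cells, their levels were 560 CPM of Foxp3 (471 to 661), 1300 CPM of Cd8b1 (1162 to 1449), 3731 CPM of Ccl5 and 2963 CPM of Gzmb. The other 37 cells with 4 or more Cd8b1 UMIs had a similar 1129 CPM of Cd8b1 (1006 to 1264), 4402 CPM of Ccl5, but only 702 CPM of Gzmb. Gzmb was thus high in the Foxp3 cells of this group, and Foxp3 reference cells were high in it as well, at 1780 CPM in those matched to Foxp3 members.

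**Figure D4:**
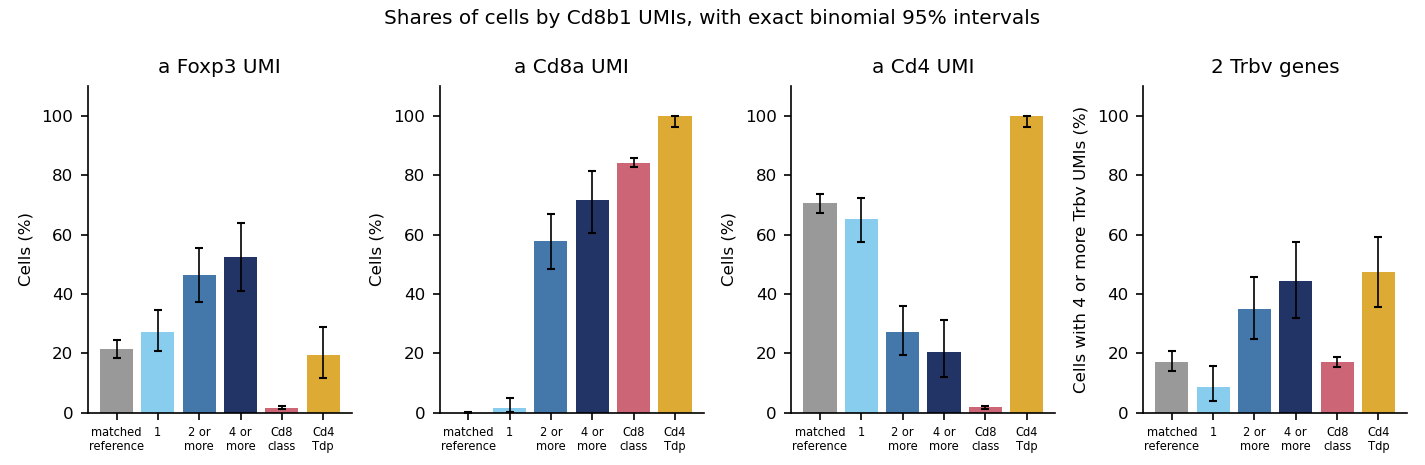
Shares of cells in percent (y axes) with a UMI of Foxp3, Cd8a or Cd4, and with 2 T cell receptor beta V genes, by Cd8b1 UMIs per cell and in Cd8 class and Cd4-identity Tdp cells, with exact binomial 95% intervals. Foxp3 and 2 beta V genes were both more frequent in members with 4 or more Cd8b1 UMIs (52.6% and 44.4%) than in those with 1 (27.2% and 8.57%).

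To see what marked Foxp3 cells with Cd8b1 apart from other Foxp3 cells, members with a Foxp3 UMI were matched to reference cells with one (91 and 245 cells, where 2.59% of 4287 genes were higher and 3.73% lower). This comparison was also chosen after the data were seen. The Foxp3 level did not differ beyond its interval, at 626 against 661 CPM with a ratio of 0.947 (0.823 to 1.09). Ccl5 was 2.65-fold higher (2.42 to 2.92), Cd7 3.76-fold (2.66 to 5.35), Nkg7 2.38-fold (2.09 to 2.71), Ly6c2 2.32-fold (1.91 to 2.81) and Ctsw 2.30-fold (1.76 to 3.00). Il2ra was lower at a ratio of 0.551 (0.446 to 0.676) and Cd40lg at 0.290 (0.102 to 0.676). Of 15 regulatory genes 3 were lower (Il2ra, Areg and Ccr8) and none higher. Ctla4 at 0.797 (0.680 to 0.931) and Tnfrsf9 at 0.714 (0.641 to 0.794) did not reach the fold needed. Of 11 cytotoxic genes 3 were higher (Nkg7, Ctsw and Lamp1) and Gzma was lower, with a median log2 ratio of -0.22 beside -0.028 for all genes. The 4 Gzma UMIs of these members lay in 3 cells. Gzmb was not called, at 2331 CPM against 1780 CPM (ratio 1.31, 1.21 to 1.41). Both measured macrophage markers, Lyz2 and Cd68, were higher, with the list at 898 CPM against 439 CPM, and all Lyz2 UMIs of the members lay in 3 cells. The part of these cells in the other values was not tested.

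A T cell as a rule expresses 1 T cell receptor beta chain, so the beta V genes (Trbv) give a readout that the Cd8b1 rule did not use. Whether the authors' identity call used them is not known here. They were read in cells with at least 4 Trbv UMIs, a gene counting with at least 2, and the genes named here were picked after their values were seen. Trbv12-1 and Trbv12-2 are near-identical relatives whose reads the counting could split. Trbv12-1 was found in 3 of 519 matched reference cells (0.578%, 0.119 to 1.68), 1 of 105 members with 1 Cd8b1 UMI (0.952%), 14 of 63 members with 4 or more (22.2%, 12.7 to 34.5) and 28.3% of 1913 Cd8 class cells with Cd8b1. Trbv12-2 was found in 1.73% of the reference, 0 of 105 members with 1 UMI (which allows up to 2.86%), 25.4% of members with 4 or more (15.3 to 37.9) and 9.78% of the Cd8 class. Trbv1 was less frequent outside the reference, with 16.2%, 6.67% (2.72 to 13.3), 7.94% (2.63 to 17.6) and 3.03% in the same order. Its interval in members with 4 or more held the shares of both the reference and the Cd8 class. Members with 4 or more Cd8b1 UMIs thus used Trbv12-1 at a share whose interval holds that of the Cd8 class, and members with 1 UMI did not. For Trbv12-2 the interval with 4 or more lay above the Cd8 class share. The genes thus differed in how near these members came to the Cd8 class.

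Trbv29 behaved differently. It was found in 5.01% of the matched reference (3.30 to 7.25), but in 18.1% of members with 1 Cd8b1 UMI (11.3 to 26.8), 19.0% with 4 or more and 14.2% of the Cd8 class. By hashtag number it was found in 7 of 65, 17 of 55, 5 of 28 and 11 of 38 matched members, and in 10 of 215, 8 of 151, 1 of 58 and 7 of 95 reference cells. The share was higher in members than in the reference in all 4 numbers. In Foxp3 cells, Trbv12-1 was found in 8 of 34 and Trbv12-2 in 13 of 34 members with 4 or more Cd8b1 UMIs, against 1 and 4 of 204 reference cells with Foxp3.

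**Figure D5:**
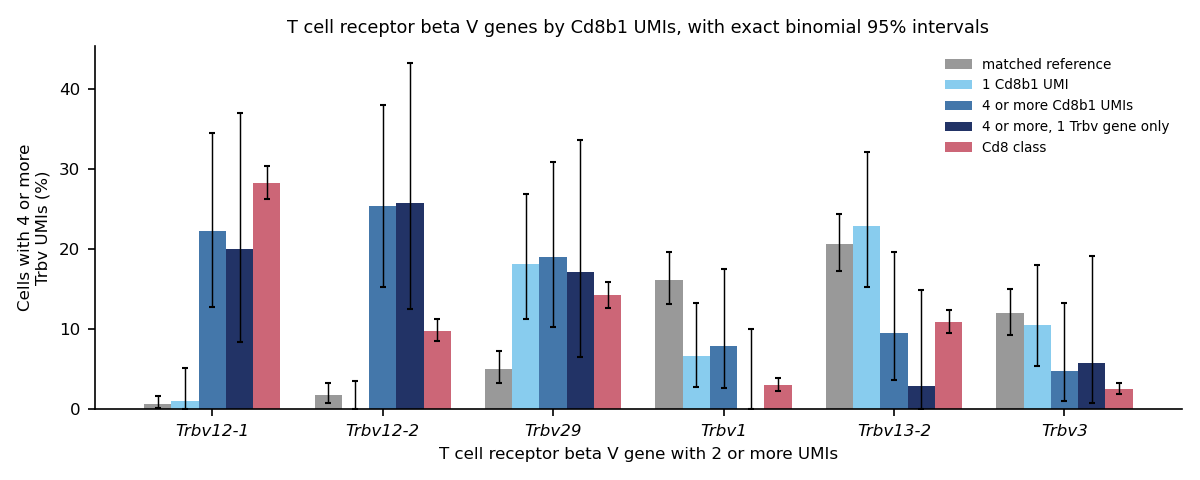
Share of cells with at least 4 Trbv UMIs (y axis, percent) that held 2 or more UMIs of each beta V gene (x axis), in matched reference cells, members with 1 Cd8b1 UMI, members with 4 or more, the same with 1 Trbv gene only, and Cd8 class cells with Cd8b1, with exact binomial 95% intervals. Trbv12-1 and Trbv12-2 are at or below 1.73% in the reference and in members with 1 UMI, and at 20% or more in members with 4 or more.

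Droplets that caught a pair of cells would also show both lineages. Cells with 2 Trbv genes made up 20.6% of members (40 of 194, 15.2 to 27.0), 17.1% of the matched reference (14.0 to 20.7) and 17.1% of Cd8 class cells with Cd8b1. They were 8.57% (3.99 to 15.6) of members with 1 Cd8b1 UMI, but 44.4% (31.9 to 57.5) of those with 4 or more and 47.4% of Cd4-identity Tdp cells. These groups differed in depth. Members with 1 UMI that were matched to their own reference (median 3762 UMIs) stood at 8.65% (4.03 to 15.8) against 17.9% (13.9 to 22.6). Those with 4 or more (median 5405.5 UMIs) stood at 43.3% (30.6 to 56.8) against 23.3% (16.8 to 30.9). Some T cells carry 2 beta chain transcripts, so the share is not a doublet rate. Reads split between Trbv12-1 and Trbv12-2 could also make 1 chain count as 2 genes. Both genes were frequent in members with 4 or more Cd8b1 UMIs, and the part of such splits was not tested. Within members with 4 or more Cd8b1 UMIs, Foxp3 was found in 19 of 35 cells with 1 Trbv gene (54.3%, median 4788 UMIs) and 15 of 28 with 2 (53.6%, median 6672 UMIs). Ccl5 stood at 3972 and 3931 CPM, Cd7 at 368 and 494 CPM, Gzmb at 1925 and 757 CPM and Cd40lg at 29.6 and 66.8 CPM in cells with 1 and with 2 genes. Among the 35 cells with 1 Trbv gene, Trbv12-1 was found in 7 (20%, 8.44 to 36.9), Trbv12-2 in 9 (25.7%, 12.5 to 43.3), Trbv1 in 0 (which allows up to 8.57%) and Cd4 in 8. Without cells holding 2 Trbv genes in either group, log2 ratios of all members were 1.47 for Cd7, 0.77 for Ccl5, 1.13 for Gzmb and 0.79 for Foxp3, beside 1.81, 0.97, 0.89 and 0.68 with them. A pair of cells that share a beta V gene, or of which 1 left few Trbv UMIs, would not be seen this way.

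Beside the most similar cells, members stood between the reference and the Cd8 class in several genes. Their excess over the reference, as a percent of the gap to Cd8 class cells with Cd8b1, was 52.2% for Cd27, 45.9% for Cd160, 38.8% for Cd7 and 16.1% for Ccl5, and the deficit was 45.0% for Cd40lg and 42.7% for Zbtb7b. Gzmb, Foxp3, Itgae and Ctla4 lay above both groups, at 1060, 223, 73.6 and 283 CPM in members against 379, 6.17, 18.3 and 62.4 CPM in the Cd8 class. Among Cd4-identity Tdp cells Cd7 stood at 222 CPM (185 to 264) and Ccl5 at 3708 CPM, while Foxp3 stood at 121 CPM (93.8 to 153), under the 270 CPM of members with 4 or more Cd8b1 UMIs (227 to 318). At least 1 UMI of Cd4, Cd40lg, Zbtb7b or Foxp3 was found in 80.8% of members with 4 or more Cd8b1 UMIs, 90.5% with 1, 90.7% of the matched reference and 14.2% of Cd8 class cells with Cd8b1. Cd4 itself is counted here, and the identity call may have used it, so these shares are a description.

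Markers of other cell types moved with the comparison. Of 8 macrophage and monocyte markers 7 were lower in members (median log2 ratio -1.21), with the list at 333 CPM in members and 544 CPM in the reference. With 2 or more Cd8b1 UMIs 7 of 7 were lower (median -3.11), and 0 of 121 such members lay in the myeloid cluster (which allows up to 2.48%), against 23 of 336 matched reference cells (6.85%, 4.39 to 10.1). Dendritic cell markers summed to 2835 CPM in members and 2264 CPM in the reference, with 1 of 7 higher and 1 lower, but the members were not alike. With 1 Cd8b1 UMI 5 of 6 were higher and 1 was lower (4885 against 1906 CPM, median 1.45), and with 2 or more 6 of 6 were lower (397 against 3896 CPM, median -3.50). These UMIs lay in few cells. Over all matched members, the top 3 cells held 100% of Cd209a, 80.3% of H2-Eb1, 73.1% of H2-Ab1, 72.0% of H2-Aa and 62.4% of Cd74 UMIs. In the reference the top 3 cells held 76.3%, 38.1%, 34.2%, 38.5% and 29.4% in the same order. Melanoma markers stood at 7.71 and 8.32 CPM, with Tyr, Dct, Slc45a2 and Sox10 at 0 in members. The part of these markers in the gene calls, such as the lower Cxcl10, Ifitm3 and Fcer1g, was not tested. Within T cell clusters alone, the log2 ratio of Ifitm3 was -0.93 and that of Cxcl10 was -0.93, and both still counted as lower. Antibody counts were too sparse to place members by surface protein, with 262 counts in 278 members and 647 in 808 reference cells. The CD4 antibody gave 3.96 counts per 100 members (1.98 to 7.08), 3.47 per 100 reference cells (2.30 to 5.01) and 0.0878 per 100 Cd8 class cells, and CD45.1 gave 2.88 (1.24 to 5.67), 3.59 (2.40 to 5.15) and 1.05. For both antibodies the member interval covered the reference value. The CD8a antibody gave 1 count in members (0.360 per 100, 0.00911 to 2.00), 0 in the reference and 3.16 per 100 Cd8 class cells.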

How the data were processed

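Gene and antibody tables hold raw counts of UMIs per cell, as deposited by the authors, and a deposited annotation gives each cell its hashtag number, identity and class. Per the submitters' processing notes, the tools and build were Cell Ranger 3.1.0, Seurat 3.2.3 and mm10, without stated roles. Cell filters, hashtag assignment and class calls are not given in the sources used. CPM leave out 117 receptor and immunoglobulin genes (0.325% of UMIs). Log2 ratios carry a pseudocount of 5 CPM, and folds carry none. Clusters were made in scanpy 1.11.5 (igraph 0.11.9) from 2000 variable genes, 20 principal components, 15 neighbours and Leiden resolution 0.5, without co-receptor, receptor, mitochondrial and ribosomal genes. No doublet caller was run, and cells with 2 UMIs of each of 2 Trbv genes are reported instead. Thinning to 2000 UMIs left out 16 members and 46 reference cells.

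Members, 33 gene lists and comparisons were chosen with earlier results of these data known. The rule for naming genes took the 12 top and 12 bottom log2 ratios (20 CPM or more, 50 UMIs or more, a UMI in 5% of cells, an interval without 1), plus the co-receptors, Ccl5, Cd7, Zbtb7b, Runx3, Foxp3, Cd40lg and the 4 highest and 4 lowest of each list. That rule covers 177 genes, of which a part is named. In smaller groups of members, list genes named as called, and Fcer1g, Cdc20, Areg, Ccr8, Ikzf2, Lamp1, Ctsc, Lyz2 and Cd68, were picked after their values were seen. The ratio step was tested on simulated counts. Alternatives covered matching, thinning, minimums, pseudocounts, TMM scaling (edgeR 4.0.16), the Cd8b1 threshold and left-out cells or hashtag numbers.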

Additional observations from a re-analysis of the deposited data

How the results depend on the processing

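No paired analysis was possible because all cells come from 1 library and no test was run. Against 157 genes higher and 173 lower, the count lower was 278 when matching across hashtag numbers, 272 with no matching, 78 after thinning, 285 with at least 2 Cd8b1 UMIs and, added after seeing the data, 272 with at least 4 and 107 with exactly 1. Means of per-cell CPM gave 353 higher and 474 lower by fold alone, a minimum of 200 UMIs 34 and 35, and no minimum 266 higher. The share of 11.7% was 8.02% thinned, 4.88% with at least 2 UMIs and 9.11% among cells with a Cd4 UMI. Over 23 planned settings Cd7, Cd27, Tox, Cxcl10 and Ifitm3 kept direction and call in all, and Ccl5 in 22.

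Log2 ratios that turned direction were Ccl4 at 0.70 with 1 reference cell per member, 1.45 with at least 2 Cd8b1 UMIs, 1.26 without 2 Trbv genes, 0.12 with 1 Trbv gene only and 2.58 without hashtag number 1. Also turned were Klrg1 (-0.29) and Il2 (0.0018) with at least 2 Cd8b1 UMIs, Gzmc without 2 Trbv genes (0.18) and without cycling cells (0.91), Xcl1 without cycling cells (-0.90) and Itgae without Foxp3 cells (-0.10). Added after seeing the data, Klrg1 (-0.40), Ccl4 (1.23) and Ifng (0.074) turned with at least 4 Cd8b1 UMIs. Xcl1 (-2.14), Klrc1 (-0.062) and Ccl5 (-0.14) turned with exactly 1. Gzmc (0.51), Klrg1 (-0.29), Foxp3 (-0.078), Ctla4 (-0.33), Ifitm3 (0.25) and Ifng (0.080) turned among Foxp3 cells only. The cause was not tested. With 78 cells of 4 or more Cd8b1 UMIs, genes under about 20 CPM rest on few UMIs there, and 1 library leaves spread between mice unmeasured.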
